A study of Mus musculus with 45 samples.

Results

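The genes described here are 8 transcription factor genes that mark the lineage or the segments of the nephron: *Hnf4a*, *Hnf4g*, *Pax2*, *Pax8*, *Lhx1*, *Pou3f3*, *Tfap2b* and *Tfcp2l1*. They were taken by gene name from the 55401 genes of the count tables, and all 8 passed the filter on low counts in both sexes. Kidney tubules arise from a mesenchyme and an epithelial duct that both need PAX2, PAX8 and LHX1, and the tubule is later divided into segments that keep their own factors. HNF4A drives the maturation of the proximal tubule, and HNF4G is its close relative. POU3F3, also called BRN1, is needed for the loop of Henle, TFAP2B for the distal nephron, and TFCP2L1 for the cells of the collecting duct. All of them bind DNA and act in the nucleus.

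TRAP RNASeq sequences the mRNA that is held by tagged ribosomes, and here the tag was EGFP on the ribosomal protein L10a. All 45 mice carried RosaEGFP-Rpl10a, Pax8rtTA and TetOCre, received doxycycline from postnatal day 28 to 42 and were studied at 7 weeks of age (postnatal day 49). Noncystic mice were Pkd1fl/+ and thus lost 1 copy of *Pkd1* in the induced cells (8 males, 7 females), Pkd1KO mice were Pkd1fl/fl (7 males, 8 females), and Pkd1KO+ciliaKO mice were Pkd1fl/fl and Kif3afl/fl (9 males, 6 females). The comparison of the 3 genotypes asks which mRNAs respond to loss of polycystin-1 only while cilia are present, since *Kif3a* encodes a motor subunit that cilia require. The tag, like the deletion, is made only where the *Pax8* promoter drives rtTA, so cells without *Pax8* activity, and tubule cells that escaped Cre, are not sampled by design.

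The gene counts of a mouse summed to 80874556 at the least, 103070359 at the median and 132958186 at the most. *Kif3a* had 4.90 to 7.45 CPM (counts scaled to the size of the library) in the 9 male Pkd1KO+ciliaKO mice and 13.8 to 25.5 in the 8 noncystic males. In females the library labelled noncystic female replicate 5 was at 6.69 CPM of *Kif3a*, and the library labelled Pkd1KO+ciliaKO female replicate 6 was at 20.7, which goes against both labels. In males 4 libraries lay apart on the first principal component of the deviations from the genotype means: Pkd1KO replicate 4 (score 66.5), Pkd1KO+ciliaKO replicates 8 (56.9) and 6 (38.9) and noncystic replicate 3 (53.8), while the next male was at 16.5. Calls on the 8 factors, and the correlations between mice, are also given without those of these 6 libraries that enter them. On the first component of the females, Pkd1KO+ciliaKO replicate 1 scored 58.2, with the next female at 30.1. That library is not among the 6 and was left out only as a single mouse. The summed level of 12 proximal tubule markers ranged from 9650 to 24000 CPM over all mice and that of 8 thick ascending limb markers from 2620 to 6690. Markers of cells outside the tubule were low but not absent: 5 podocyte markers summed to between 38.2 and 171 CPM, 5 endothelial markers to between 59.4 and 333, 6 fibroblast markers to between 133 and 667, and 5 macrophage markers to between 35.8 and 244. The mast cell markers summed to at most 7.33 CPM, and *Cpa3*, *Mcpt4* and *Cma1* were at 0 counts in 19, 17 and 18 of the 45 libraries.

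In GRCm38 the 8 genes lie on 5 chromosomes, in the spans that the count tables give. *Tfap2b* (ENSMUSG00000025927.13) is at chr1:19208914-19238576 on the plus strand, *Pou3f3* (ENSMUSG00000045515.4) at chr1:42694925-42703176, plus, and *Tfcp2l1* (ENSMUSG00000026380.10) at chr1:118627945-118685168, plus. *Hnf4a* (ENSMUSG00000017950.16) is at chr2:163506808-163572910, plus, *Hnf4g* (ENSMUSG00000017688.14) at chr3:3508030-3658052, plus, *Pax8* (ENSMUSG00000026976.15) at chr2:24420560-24475599, minus, *Pax2* (ENSMUSG00000004231.15) at chr19:44756045-44837871, plus, and *Lhx1* (ENSMUSG00000018698.15) at chr11:84518284-84525535, minus. Exons of 3 of them overlap exons of another gene: *Pou3f3* shares 264 exonic bases (3.41% of its exon length) with AC122898.1, *Pax8* shares 367 (6.06%) with *Gm13415* on the opposite strand, and *Tfcp2l1* shares 130 (1.38%) with the small nuclear RNA gene *Gm23497*. The overlapping genes had median counts of 91, 157 and 0, against 26874, 24053 and 109273 for the 3 factors. The settings of the counting are not fully given, and reads that could belong to either gene may be in neither count. These counts therefore do not show how many such reads there were.

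RefSeq promoters of GRCm38.p6, from 250 bases before the start to 50 bases from it, are shown for the 3 factors that fell in Pkd1KO males and for the downstream of the 2 *Hnf4a* starts, the one known as P1. The table matched 7 of the 8 genes. *Tfap2b* (chr1:19211804-19212103, plus), *Pou3f3* (chr1:42695518-42695817, plus), *Tfcp2l1* (chr1:118627695-118627994, plus) and *Hnf4a* P1 (chr2:163546905-163547204, plus) read, 5′ to 3′:
Tfap2b: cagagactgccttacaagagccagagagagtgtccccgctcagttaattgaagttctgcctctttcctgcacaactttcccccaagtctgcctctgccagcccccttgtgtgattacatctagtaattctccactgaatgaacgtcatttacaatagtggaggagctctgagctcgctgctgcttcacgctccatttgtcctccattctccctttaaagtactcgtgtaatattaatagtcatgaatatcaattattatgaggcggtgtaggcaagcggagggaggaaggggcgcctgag
Pou3f3: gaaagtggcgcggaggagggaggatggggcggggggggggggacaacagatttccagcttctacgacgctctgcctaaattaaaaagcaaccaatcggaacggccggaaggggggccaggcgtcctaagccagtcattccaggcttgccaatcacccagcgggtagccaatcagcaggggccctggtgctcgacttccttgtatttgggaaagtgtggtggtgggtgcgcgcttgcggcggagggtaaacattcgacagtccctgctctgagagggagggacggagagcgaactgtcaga
Tfcp2l1: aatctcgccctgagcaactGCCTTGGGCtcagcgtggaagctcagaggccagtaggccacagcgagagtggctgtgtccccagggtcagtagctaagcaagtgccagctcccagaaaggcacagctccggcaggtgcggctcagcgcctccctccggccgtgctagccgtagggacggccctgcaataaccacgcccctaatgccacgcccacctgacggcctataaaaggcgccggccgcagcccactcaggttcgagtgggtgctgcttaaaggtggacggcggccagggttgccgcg
Hnf4a P1: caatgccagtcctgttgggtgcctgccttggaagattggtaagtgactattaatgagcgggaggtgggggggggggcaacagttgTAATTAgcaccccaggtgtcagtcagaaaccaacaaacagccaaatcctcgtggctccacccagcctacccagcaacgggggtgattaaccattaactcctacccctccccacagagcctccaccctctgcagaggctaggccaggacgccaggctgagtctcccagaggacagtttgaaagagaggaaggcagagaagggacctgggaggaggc
Capitals mark matches, on either strand, to letters bound by factors of the members' own families. Those searched were GCCNNNGGC for AP-2 proteins such as TFAP2B, CAAAGTCCA for HNF4, ATGCAAAT for POU proteins and TAATTA for homeodomains such as that of LHX1, none of which overlap one another in these 4 windows. The *Tfcp2l1* window holds 1 AP-2 match, 231 to 223 bases before the start, and *Hnf4a* P1 holds 1 homeodomain match, 165 to 160 bases before it. Of the 32851 promoters in the table, 16.6% hold the AP-2 letters, 0.475% the HNF4 letters, 1.74% the POU letters and 5.29% the homeodomain letters. These letters are not in the *Tfap2b* and *Pou3f3* windows, and a match is a description of sequence, not a binding site. GC content was 48.3% in the *Tfap2b* window, 60.3% in *Pou3f3*, 65.3% in *Tfcp2l1* and 57.3% in *Hnf4a* P1, against a median of 52.7% over all promoters. The counts are per gene and do not separate the 2 *Hnf4a* starts.

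Between genes, levels were compared per length, in the TPM values that the authors deposited for each sex. In noncystic males *Hnf4a* stood first, with a median of 890 TPM (lowest 756, highest 1030), followed by *Tfcp2l1* at 341, *Pax8* at 118, *Pou3f3* at 78.6, *Tfap2b* at 35.4, *Pax2* at 35.2, *Lhx1* at 21.1 and *Hnf4g* at 12.4. Thus the 2 HNF4 genes stood at the opposite ends of the order. Neighbours whose ranges over the 8 mice overlapped were *Pax8* and *Pou3f3*, and *Tfap2b* and *Pax2*. The genes of a pair were measured in the same mice, so the overlap alone does not settle their order. Noncystic females had the same order except that *Pax2* (median 52.2 TPM) stood above *Tfap2b* (47.0), again with overlapping ranges, and *Pou3f3* (123) came close to *Pax8* (131). In Pkd1KO+ciliaKO females the *Hnf4a* range (584 to 744 TPM) met that of *Tfcp2l1* (399 to 599).

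**Figure D1:**
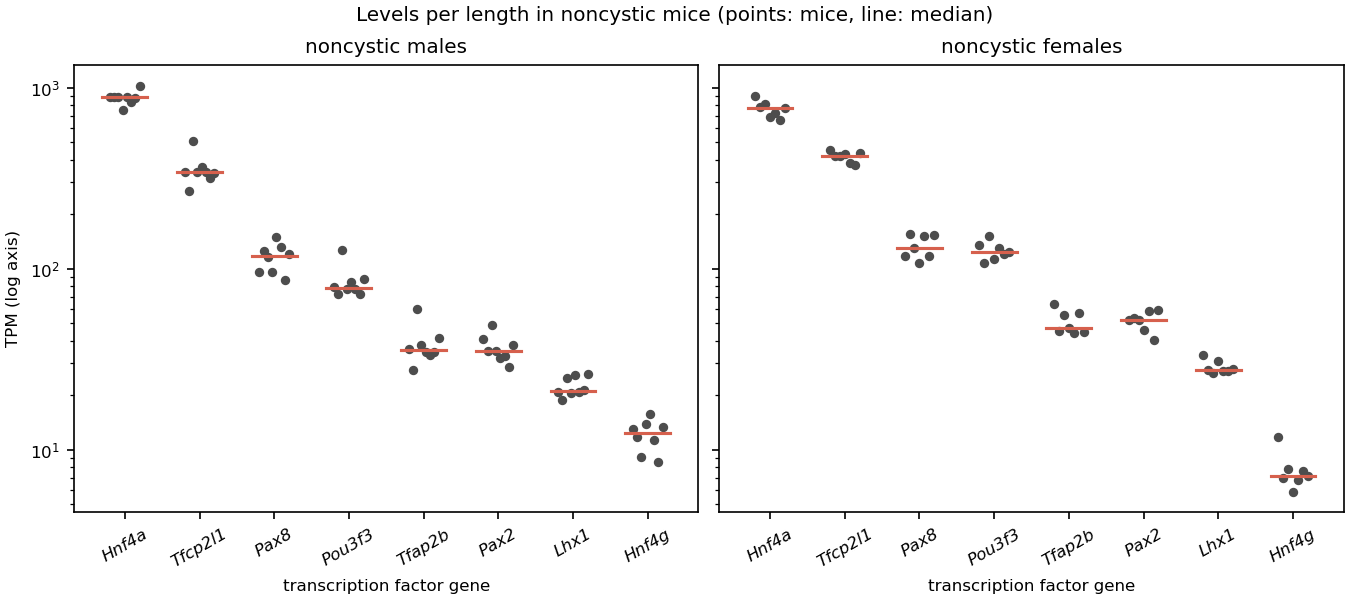
Level per length (TPM, log axis) of the 8 factors in each noncystic mouse, with males in the left panel, females in the right panel and a line at the median. *Hnf4a* is highest (median 890 TPM in males and 775 in females) and *Hnf4g* lowest (12.4 and 7.18).

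*Tfap2b*, an AP-2 factor of the distal nephron, fell in Pkd1KO males against both other genotypes. Its level in the 8 noncystic males was 63.4 CPM at the lowest, 77.1 at the median and 108 at the highest, and in the 7 Pkd1KO males it was 44.6, 54.0 and 60.7. The 9 Pkd1KO+ciliaKO males lay at 60.8, 73.4 and 117. All 7 Pkd1KO males were thus below every male of both other groups, although the margin to the lowest Pkd1KO+ciliaKO male (60.7 against 60.8 CPM) was small. The log2 fold change was -0.58 (SE 0.0978, adjusted p = 0.00196) against noncystic and -0.56 (SE 0.129, adjusted p = 0.021) against Pkd1KO+ciliaKO, by the quasi-likelihood test of edgeR, with p adjusted by Benjamini-Hochberg over 15991 genes. The 2 comparisons share the Pkd1KO mice. Pkd1KO+ciliaKO and noncystic males differed by -0.02 (SE 0.125, adjusted p = 0.951), with a 95% interval of the log2 difference from -0.26 to 0.23.

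The call on *Tfap2b* in males was kept when any single mouse was left out. Of the 4 libraries apart, 3 held high *Tfap2b* levels, at 108 CPM in noncystic replicate 3 and 117 and 108 in Pkd1KO+ciliaKO replicates 6 and 8. Without the 4 the log2 fold change was -0.49 (SE 0.0841, edgeR adjusted p = 0.00249) against noncystic and -0.37 (SE 0.0789, edgeR adjusted p = 0.0141) against Pkd1KO+ciliaKO.

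In females *Tfap2b* fell against Pkd1KO+ciliaKO mice, and its difference from noncystic mice did not pass the threshold. Noncystic females had 84.1 CPM at the lowest, 93.4 at the median and 120 at the highest, Pkd1KO females 64.2, 81.3 and 93.3, and Pkd1KO+ciliaKO females 88.9, 107 and 142. All 8 Pkd1KO females were below the median of each other group, but the ranges overlapped. The log2 fold change was -0.42 (SE 0.103, edgeR adjusted p = 0.0161) against Pkd1KO+ciliaKO and -0.28 (SE 0.0961, edgeR adjusted p = 0.126) against noncystic. Without the 2 libraries whose *Kif3a* goes against the label these were -0.42 (edgeR adjusted p = 0.0276) and -0.32 (edgeR adjusted p = 0.0887). Pkd1KO+ciliaKO females stood 0.13 log2 units above noncystic females (SE 0.113, edgeR adjusted p = 0.53). Whether the response of *Tfap2b* to Pkd1KO differs between sexes was tested in 1 fit of all 45 mice, and the male minus female difference against noncystic was -0.29 (SE 0.169, edgeR adjusted p = 0.712).

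**Figure D2:**
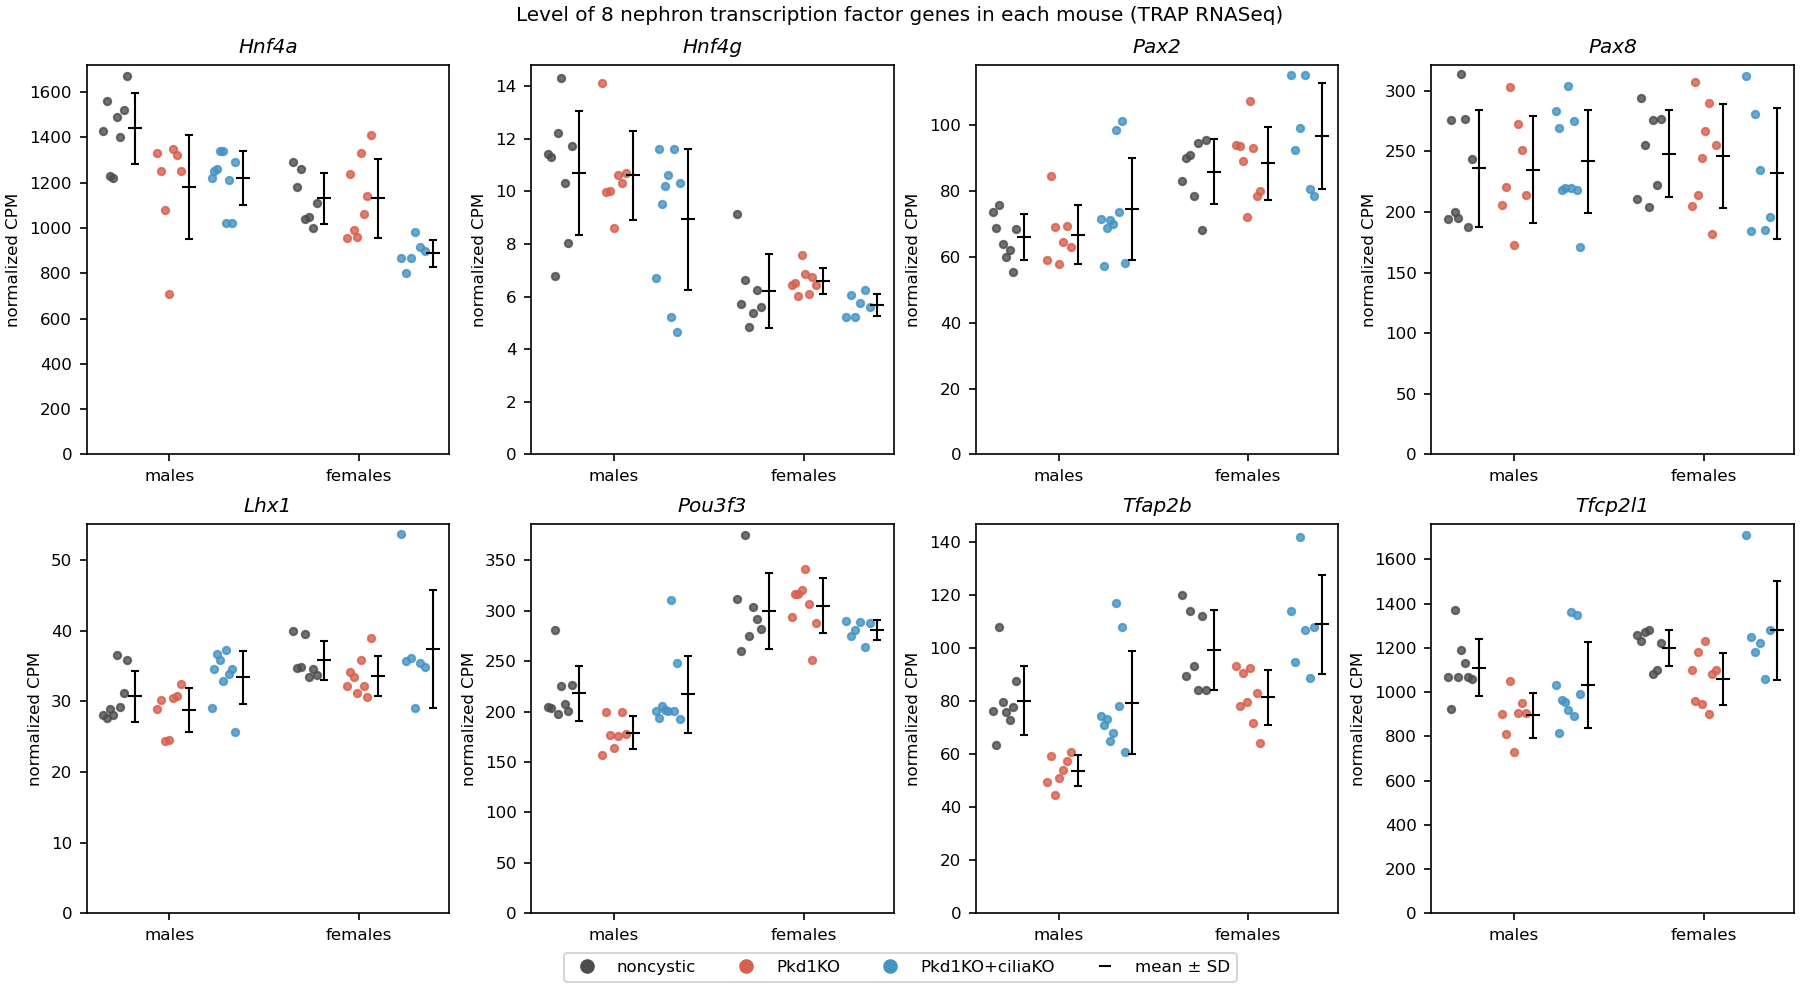
Normalized CPM of each factor in each of the 45 mice, by genotype (colour) and sex, on axes that start at 0; the black marks are the mean ± SD. In the *Tfap2b* panel the 7 male Pkd1KO points (44.6 to 60.7 CPM) lie below those of both other male groups, and in the *Hnf4a* panel the 6 female Pkd1KO+ciliaKO points (803 to 981) lie below those of noncystic females.

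Of 8 thick ascending limb markers, 2 fell in Pkd1KO males against noncystic, the Na-K-2Cl cotransporter gene *Slc12a1* (log2 fold change -0.72) and *Egf* (-1.35), where 2.25% of all genes fell. Against Pkd1KO+ciliaKO 3 of the 8 fell (*Slc12a1*, *Kcnj1* and *Cldn19*), where 1.78% of all genes did. Of the 8, *Cldn19* rose in Pkd1KO+ciliaKO against noncystic males (0.59, edgeR adjusted p = 0.00686) and *Egf* fell (-0.64, edgeR adjusted p = 0.0227), where 8.89% of all genes passed. Their summed level was 3460 to 6450 CPM in noncystic males with a median of 4500, 2620 to 4400 in Pkd1KO males with a median of 2730, and 3070 to 5520 in Pkd1KO+ciliaKO males with a median of 4480. In females the sums were 4570 to 6210 CPM in noncystic, 3640 to 5900 in Pkd1KO and 4940 to 6690 in Pkd1KO+ciliaKO mice. In Pkd1KO against Pkd1KO+ciliaKO females 2 of the 8 markers fell, *Slc12a1* (-0.53) and *Ptger3* (-0.36), where 4.65% of all genes did. Against noncystic females 1 fell in Pkd1KO, *Cldn16* (-0.53, edgeR adjusted p = 0.0466), where 3.34% of all genes passed. *Ptger3* rose in Pkd1KO+ciliaKO against noncystic females (0.39, edgeR adjusted p = 0.0411), where 2.54% of all genes passed. No marker of the list was at 0 in any library. Of 5 distal convoluted tubule markers, 1 fell in Pkd1KO males against noncystic, *Klhl3* (-0.4), and 1 against Pkd1KO+ciliaKO, *Pvalb* (-2.37). All 5 log2 fold changes were negative in both comparisons, with medians of -0.37 and -0.33. *Pvalb* was also the 1 marker of the 5 that passed in Pkd1KO+ciliaKO against noncystic males, where it rose by 1.81 (edgeR adjusted p = 0.0188). In Pkd1KO females 0 of the 5 passed against noncystic mice by edgeR or DESeq2. Against Pkd1KO+ciliaKO females 2 of the 5 fell, where 4.65% of all genes did. In bulk samples like these, fewer cells of a type and less RNA per cell cannot be told apart. The part of the limb and distal convoluted tubule markers in the *Tfap2b* result was not tested.

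*Pou3f3*, the POU factor of the loop of Henle, also fell in Pkd1KO males against noncystic males. Noncystic males had 198 CPM at the lowest, 206 at the median and 281 at the highest, and Pkd1KO males 157, 177 and 200. Of the 7 Pkd1KO males, 5 were below all 8 noncystic males and the other 2 were within their range. The log2 fold change was -0.29 (SE 0.0805, edgeR adjusted p = 0.0414). This call was close to the threshold: it held only when noncystic replicate 4 or 7 or Pkd1KO replicate 2 or 6 was the mouse left out (4 of 15 choices), and the adjusted p lay between 0.0516 and 0.0946 for the others. Without the 4 libraries apart, among them noncystic replicate 3 with the highest level, it was -0.21 (SE 0.0667, edgeR adjusted p = 0.086).

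Against Pkd1KO+ciliaKO males (193, 201 and 311 CPM) the *Pou3f3* difference was -0.28 (SE 0.0986, edgeR adjusted p = 0.121). In females the 3 groups overlapped, with 260 to 375 CPM in noncystic, 251 to 341 in Pkd1KO and 264 to 290 in Pkd1KO+ciliaKO mice, and no comparison passed the threshold. The male minus female difference of the Pkd1KO against Pkd1KO+ciliaKO contrast was -0.40 (SE 0.123), with an unadjusted p of 0.00237 and an adjusted p of 0.25 in edgeR, so a sex difference was not established over all genes.

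*Tfcp2l1*, the collecting duct factor, fell in Pkd1KO males against noncystic males as well. The lowest, median and highest levels were 922, 1070 and 1370 CPM in noncystic males and 730, 905 and 1050 in Pkd1KO males. All 7 Pkd1KO males were below the noncystic median and 5 were below every noncystic male. The log2 fold change was -0.32 (SE 0.0899, edgeR adjusted p = 0.0462), and leaving out 1 mouse kept the call only for noncystic replicate 2 or Pkd1KO replicate 3 (2 of 15 choices; adjusted p of 0.0567 to 0.107 for the others). Without the 4 libraries apart it was -0.22 (SE 0.075, edgeR adjusted p = 0.109). The level was 813 to 1360 CPM in Pkd1KO+ciliaKO males, and neither other male comparison passed the threshold.

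In females *Tfcp2l1* was at 1080, 1230 and 1280 CPM in noncystic, 901, 1090 and 1230 in Pkd1KO and 1060, 1240 and 1710 in Pkd1KO+ciliaKO mice. All 8 Pkd1KO females were below the median of either other group, with overlapping ranges. The differences of -0.18 (SE 0.0736, edgeR adjusted p = 0.218) against noncystic and -0.27 (SE 0.101, edgeR adjusted p = 0.0914) against Pkd1KO+ciliaKO did not pass the threshold. The latter passed with the 3 genotypes in 1 fit (-0.28, edgeR adjusted p = 0.043) and on log2(TPM + 1) (-0.36, limma adjusted p = 0.0265). On log2(TPM + 1) the median of all genes also moved in that comparison, to -0.071 from -0.011. In males the principal cell markers, whose genes include the water channel *Aqp2*, summed to 428 to 705 CPM in noncystic and 349 to 807 in Pkd1KO mice (*Avpr2* was at 0 counts in 3 libraries), and the intercalated cell markers to 382 to 468 and 275 to 440. Of the 6 intercalated cell markers 1 fell, the proton pump subunit gene *Atp6v1b1* (-0.39, edgeR adjusted p = 0.035), where 2.25% of all genes fell. The median log2 fold change of the 6 was -0.27. Of the 8 principal cell markers 0 passed by edgeR or DESeq2, with 2 at an unadjusted p under 0.05. The median of the 8 was 0.22, and 3 of them were negative. The part of the 2 lists in the *Tfcp2l1* result was not tested.

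*Hnf4a*, the proximal tubule factor, had its lowest group median in females that lacked both *Pkd1* and cilia. The 6 Pkd1KO+ciliaKO females had 803 CPM at the lowest, 881 at the median and 981 at the highest, the 7 noncystic females 999, 1110 and 1290, and the 8 Pkd1KO females 956, 1100 and 1410. All Pkd1KO+ciliaKO females were below all noncystic females, and 6 of the 8 Pkd1KO females were above all Pkd1KO+ciliaKO females. *Hnf4a* thus fell in Pkd1KO+ciliaKO against noncystic females by 0.35 on the log2 scale (SE 0.0751, edgeR adjusted p = 0.0295), and was higher in Pkd1KO than in Pkd1KO+ciliaKO females by 0.35 (SE 0.095, edgeR adjusted p = 0.0256). Without the 2 libraries whose *Kif3a* goes against the label these were -0.37 (SE 0.087, edgeR adjusted p = 0.0264) and 0.36 (SE 0.104, edgeR adjusted p = 0.042). Pkd1KO and noncystic females differed by less than 0.01 log2 units, with a 95% interval from -0.18 to 0.19.

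Both female calls on *Hnf4a* lay near the threshold. The fall against noncystic was kept in 7 of 13 choices of the mouse left out, and was lost without noncystic replicate 2, 3 or 7 or Pkd1KO+ciliaKO replicate 2, 3 or 4 (adjusted p of 0.0578 to 0.0871). The difference from Pkd1KO was kept in 12 of 14 and lost without Pkd1KO+ciliaKO replicate 2 (0.0596) or 3 (0.0589). On log2(TPM + 1) they were -0.22 (limma adjusted p = 0.0912) and 0.24 (limma adjusted p = 0.0907). The medians of all genes on that scale were 0.091 and -0.071, in place of 0.009 and -0.011 by edgeR.

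In males *Hnf4a* was at 1220, 1460 and 1670 CPM in noncystic, 710, 1250 and 1350 in Pkd1KO and 1020, 1250 and 1340 in Pkd1KO+ciliaKO mice. All 7 Pkd1KO and all 9 Pkd1KO+ciliaKO males were below the noncystic median, with overlapping ranges. The differences from noncystic, -0.28 (SE 0.122, edgeR adjusted p = 0.18) and -0.24 (SE 0.0851, edgeR adjusted p = 0.0867), did not pass the threshold. The latter passed by DESeq2 (-0.25, adjusted p = 0.0234), without the 4 libraries apart (-0.21, edgeR adjusted p = 0.046) and without noncystic replicate 3 alone (-0.27, edgeR adjusted p = 0.0382). The male minus female difference of the *Hnf4a* response was -0.39 for Pkd1KO against Pkd1KO+ciliaKO (SE 0.143), with an unadjusted p of 0.00861 and an adjusted p of 0.394 in edgeR. It was -0.28 for Pkd1KO against noncystic (SE 0.141, edgeR adjusted p = 0.619) and 0.11 for Pkd1KO+ciliaKO against noncystic (SE 0.142, edgeR adjusted p = 1), and none of the 3 passed the threshold.

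The 12 proximal tubule markers summed to 15600 to 20400 CPM in noncystic, 12800 to 18600 in Pkd1KO and 11600 to 17500 in Pkd1KO+ciliaKO females. Of the 12, 0 passed in Pkd1KO+ciliaKO against noncystic females by edgeR, with 5 at an unadjusted p under 0.05 and 1 by DESeq2. In Pkd1KO against Pkd1KO+ciliaKO females 1 was higher, the glucose transporter gene *Slc5a2* (log2 fold change 2.30), and 1 lower, *Miox* (-0.57), an enzyme of inositol breakdown. In males the sums were 17500 to 24000 CPM in noncystic, 9650 to 18200 in Pkd1KO and 12900 to 16800 in Pkd1KO+ciliaKO mice. In Pkd1KO+ciliaKO against noncystic males 4 of the 12 fell, *Slc5a2* (-4.48), *Slc5a12* (-0.62), *Cubn* (-0.50) and *Lrp2* (-0.49), the last of which encodes megalin. In Pkd1KO against noncystic males 3 fell, *Pck1* (-0.78), *Miox* (-0.61) and *Cubn* (-0.46). The part of these markers in the *Hnf4a* values was not tested.

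*Hnf4g*, the second HNF4 gene, was measured at a lower level. In males it was at 6.79, 11.3 and 14.3 CPM in noncystic, 8.60, 10.3 and 14.1 in Pkd1KO and 4.66, 10.2 and 11.6 in Pkd1KO+ciliaKO mice, and in females at 4.83, 5.70 and 9.13, at 6.03, 6.48 and 7.56, and at 5.21, 5.68 and 6.25. The 3 genotypes overlapped in each sex. In females 6 of 8 Pkd1KO mice were above all Pkd1KO+ciliaKO mice, and the difference of 0.21 (SE 0.078, edgeR adjusted p = 0.0884) passed only by DESeq2 (0.21, adjusted p = 0.0342).

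The 3 lineage factors did not pass the threshold in any of the 6 genotype comparisons. *Pax2* was at 55.4 to 75.7 CPM in noncystic, 57.7 to 84.4 in Pkd1KO and 57.2 to 101 in Pkd1KO+ciliaKO males, and at 68.1 to 95.4, 71.9 to 107 and 78.2 to 115 in females. Its log2 difference between Pkd1KO+ciliaKO and noncystic mice was 0.17 in either sex (SE 0.104 in males and 0.103 in females, edgeR adjusted p = 0.33 and 0.359). *Pax8*, whose promoter also drives the rtTA of these mice, had medians of 215 to 255 CPM over the 6 groups and log2 differences between -0.10 and 0.08. The 95% interval of *Pax8* in Pkd1KO against noncystic males ran from -0.28 to 0.26, and in females from -0.23 to 0.20.

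*Lhx1*, a LIM homeodomain factor of the early nephron, was at 24.4 to 32.4 CPM in Pkd1KO males, 27.6 to 36.6 in noncystic and 25.7 to 37.2 in Pkd1KO+ciliaKO males. All 7 Pkd1KO males were below the Pkd1KO+ciliaKO median, and the difference of -0.21 (SE 0.0837) had an unadjusted p of 0.0203 and an adjusted p of 0.165 in edgeR. In females *Lhx1* was at 33.5 to 40.0 CPM in noncystic, 30.6 to 39.0 in Pkd1KO and 29.0 to 53.6 in Pkd1KO+ciliaKO mice. The top value came from Pkd1KO+ciliaKO replicate 1, and the groups overlapped.

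Counted over the 8 factors, 3 fell and 0 rose in Pkd1KO against noncystic males (*Pou3f3*, *Tfap2b* and *Tfcp2l1*). Over all 15991 genes of that comparison 6.3% passed the threshold, and 2.25% fell. In Pkd1KO against Pkd1KO+ciliaKO males 1 of 8 fell (*Tfap2b*), against 3.77% called and 1.78% lower over all genes. In Pkd1KO+ciliaKO against noncystic males 0 of 8 passed by edgeR, where 8.89% of all genes did, with 1 of 8 at an unadjusted p under 0.05 and 1 by DESeq2 (*Hnf4a*). The median log2 fold change of the 8 was -0.19, -0.18 and -0.01 in these 3 comparisons, and that of all genes -0.008, 0.008 and 0.01.

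Some markers of cells outside the tubule rose in the same Pkd1KO males. The 5 macrophage markers, all detected in every library, summed to 92.5 to 244 CPM in Pkd1KO males, 67.2 to 94.4 in noncystic and 47.4 to 93.2 in Pkd1KO+ciliaKO males. Of the 5, 1 rose in Pkd1KO males, the receptor gene *Csf1r*, by 0.35 on the log2 scale against noncystic (edgeR adjusted p = 0.0193) and by 0.77 against Pkd1KO+ciliaKO (edgeR adjusted p = 0.00187). The median log2 fold change of the 5 was 1.63 and 1.23, and the unadjusted p was under 0.05 for 5 and for 4 of them. The podocyte markers summed to 65.2 to 171 CPM in Pkd1KO and 38.2 to 107 in noncystic males. The mast cell markers summed to 0.901 to 3.55 CPM in Pkd1KO and 0.132 to 0.336 in noncystic males, and 1 of the 2 tested, *Ms4a2*, rose by 3.31 (edgeR adjusted p = 8.28e-05). The endothelial and fibroblast lists had 0 calls by edgeR, with 0 at an unadjusted p under 0.05 and 0 by DESeq2, in both comparisons of Pkd1KO males. The part of these cells in the falls of the factors was not tested.

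In Pkd1KO against noncystic females 0 of 8 passed by edgeR and 0 by DESeq2, with 2 at an unadjusted p under 0.05, where 3.34% of all 15968 genes passed by edgeR. In Pkd1KO against Pkd1KO+ciliaKO females 1 was higher (*Hnf4a*) and 1 lower (*Tfap2b*), where 11.7% of all genes passed, 7.05% higher and 4.65% lower. In Pkd1KO+ciliaKO against noncystic females 1 fell (*Hnf4a*), where 2.54% of all genes passed and 1.87% fell. Without the 2 libraries whose *Kif3a* goes against the label, 926 genes passed in that comparison in place of 405. Genes that fell then numbered 581 in place of 298. The medians of the 8 in females lay between -0.02 and 0, and those of all genes between -0.011 and 0.009. *Tfap2b* was the only one of the 8 called in more than 1 male comparison, and those comparisons share the Pkd1KO males.

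**Figure D3:**
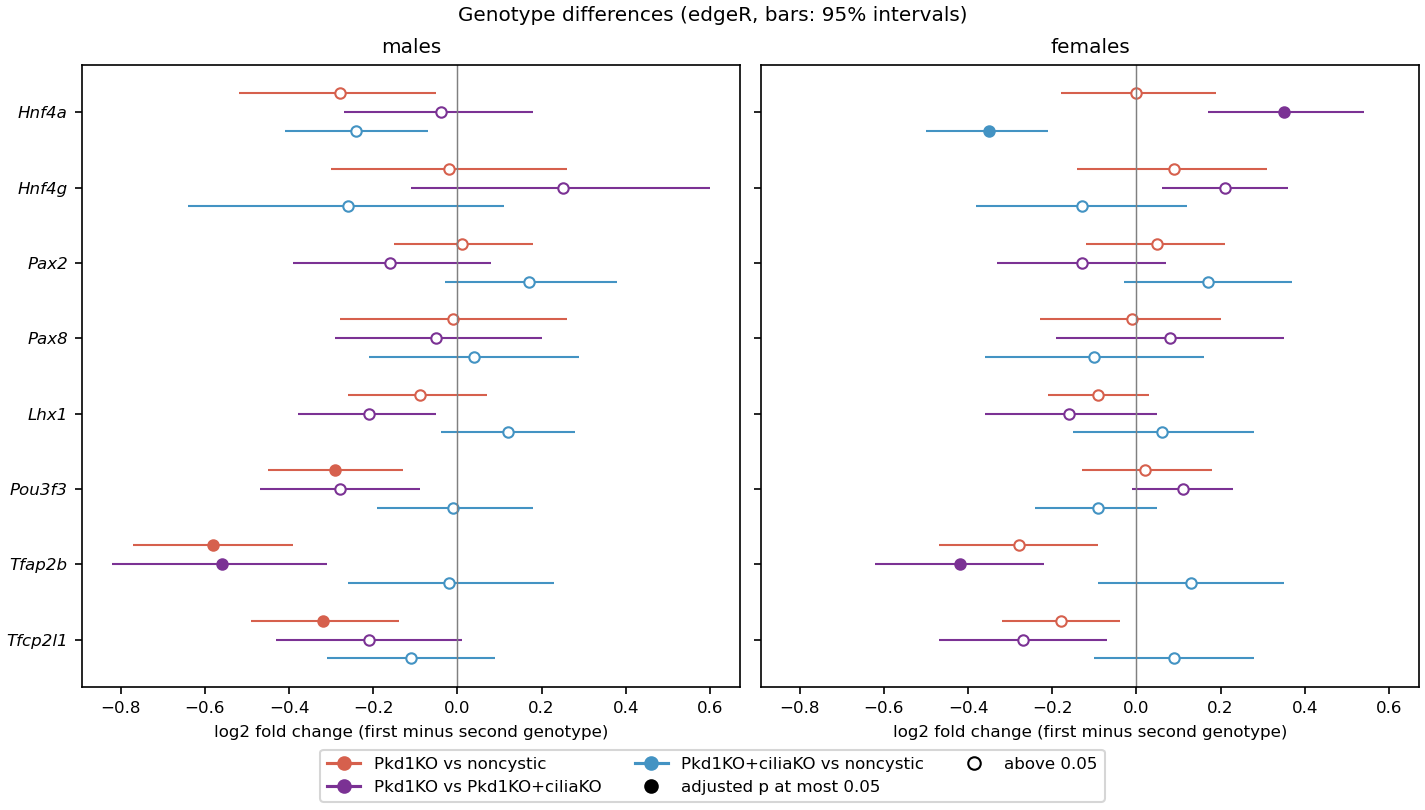
Log2 fold change of each factor in the 3 genotype comparisons (colour), in males on the left and females on the right, with bars of the 95% interval. Filled points have an adjusted p of at most 0.05 in edgeR; the leftmost are those of *Tfap2b* in Pkd1KO males (-0.58 and -0.56).

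Among noncystic mice, 5 of the 8 factors passed the threshold between males and females, where 27.4% of the 15828 genes tested in both sexes did. The HNF4 genes were higher in males: *Hnf4a* by 0.34 on the log2 scale (SE 0.1, edgeR adjusted p = 0.00821), with 1220 to 1670 CPM in males and 999 to 1290 in females, and *Hnf4g* by 0.79 (SE 0.156, edgeR adjusted p = 0.000138), with 6.79 to 14.3 and 4.83 to 9.13 CPM. Over all genes 14.1% were higher in males.

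The other 3 were lower in males, as were 13.3% of all genes. *Pou3f3* differed by -0.46 (SE 0.0855, edgeR adjusted p = 6.32e-05), with 198 to 281 CPM in males and 260 to 375 in females. *Pax2* differed by -0.38 (SE 0.107, edgeR adjusted p = 0.00636) and *Tfap2b* by -0.31 (SE 0.119, edgeR adjusted p = 0.0477). The ranges of the sexes overlapped for all 5. Without the 6 libraries named above all 5 passed, with -0.42 for *Tfap2b* (edgeR adjusted p = 0.00098), while with DESeq2's size factors *Tfap2b* missed the threshold (-0.30, edgeR adjusted p = 0.0526).

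In noncystic mice 4 of 8 thick ascending limb, 5 of 8 principal cell and 2 of 6 intercalated cell markers were lower in males than in females, and 0 were higher. Of the 5 distal convoluted tubule markers 0 passed by edgeR, with 1 at an unadjusted p under 0.05 and 0 by DESeq2, and their median difference was -0.05 on the log2 scale. Of the 12 proximal markers 4 were higher in males and 1 lower. Their part in the sex differences of the factors was not tested. No sex difference of a genotype response passed the threshold among the 8 factors by edgeR or DESeq2, with 1, 2 and 0 of the 8 at an unadjusted p under 0.05 for Pkd1KO against noncystic, Pkd1KO against Pkd1KO+ciliaKO and Pkd1KO+ciliaKO against noncystic. Over all genes 0.0126%, 0.221% and 0.0316% passed by edgeR.

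The factors also varied between mice of the same genotype and sex, and their correlations changed when the libraries named above were left out. After subtraction of the group means, Pearson's r of the log2 CPM over the 45 mice was 0.69 between *Pou3f3* and *Tfap2b*, 0.61 between *Pax2* and *Pou3f3*, and 0.53 between *Tfcp2l1* and each of *Pax2*, *Pou3f3* and *Tfap2b*. Without the 6 libraries, an alternative added after the data were seen, these were 0.44, 0.42, 0.27, 0.13 and 0.14 over 39 mice. *Hnf4a* and *Hnf4g* had an r of 0.47 with all mice and 0.19 without the 6. The negative values of *Hnf4g*, from -0.43 with *Tfap2b* to -0.50 with *Tfcp2l1*, became 0.07 and -0.19. Values of *Hnf4a* with *Pax2*, *Pou3f3* and *Tfcp2l1* were -0.03, -0.10 and -0.05, and those of *Pax8* and *Lhx1* with the other factors lay between -0.13 and 0.37. All are descriptions, since the points of a pair share a library and the mixture of segments in it.

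Against the marker lists, *Hnf4a* and *Hnf4g* had an r of 0.58 and 0.44 with the proximal tubule, and 0.13 and 0.16 without the 6 libraries. With the thick ascending limb *Tfap2b* had 0.55 and *Pou3f3* 0.43, and 0.42 and 0.24 without the 6. With intercalated cells *Tfap2b* had 0.50 and *Tfcp2l1* 0.52, and 0.41 and 0.39 without them. With principal cells *Tfcp2l1* had 0.37 with all mice and 0.04 without the 6. With the distal convoluted tubule *Tfap2b* had 0.22 and -0.02. *Hnf4a* had -0.66 with macrophage, -0.64 with endothelial, -0.58 with podocyte and -0.55 with fibroblast markers, and -0.31, -0.37, -0.33 and -0.5 without the 6. *Pax8* had -0.62 with endothelial markers and -0.60 without the 6, and *Lhx1* had -0.57 and -0.67 with macrophage markers.

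**Figure D4:**
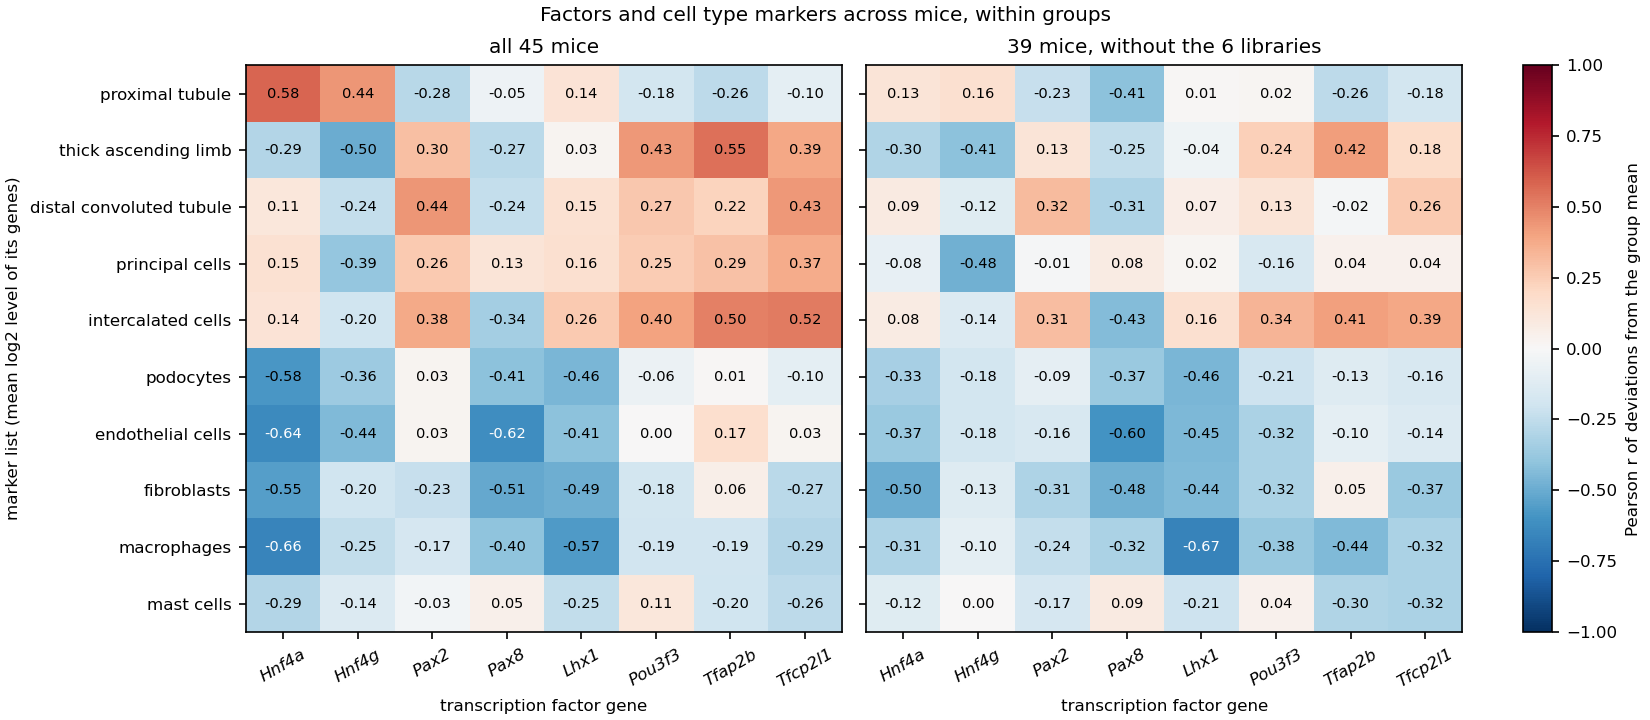
Pearson's r, printed in each cell, between each factor (columns) and the mean log2 level of each marker list (rows), after subtraction of the 6 group means, over all 45 mice on the left and over 39 mice without the 6 libraries on the right. *Hnf4a* with the proximal tubule is 0.58 on the left and 0.13 on the right, and *Tfap2b* with the thick ascending limb is 0.55 and 0.42.

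The protein-coding genes most alike in these deviations were found for each factor over the 45 mice. For *Tfap2b* they were *Mecom* (r of 0.824), *Lnx1* (0.82) and *Tmem65* (0.82), and for *Pou3f3* *Rab11fip1* (0.856), *Sim2* (0.815) and *Sorcs3* (0.809). For *Tfcp2l1* they were *Slc5a3* (0.796), *Ampd3* (0.794) and *Fv1* (0.782), and for *Pax2* *Aldoc* (0.836), *Rgl3* (0.823) and *Spag5* (0.799). *Hnf4a* was most like *Nek4* (0.816), *Kmo* (0.793) and *Dnaja3* (0.787), and *Hnf4g* most like *Rgl1* (0.782), *Cda* (0.77) and *Tulp3* (0.763). *Lhx1* was nearest to *Terf2ip* (0.79), *Sbds* (0.769) and *Rnf185* (0.744). *Pax8* had the weakest likeness to any gene, with *Ppp2cb* (0.655), *Arhgef5* (0.65) and *Syap1* (0.635). Without the 6 libraries the first-named gene of *Tfap2b* had 0.65, that of *Pou3f3* 0.75, of *Tfcp2l1* 0.66 and of *Pax2* 0.72. That of *Hnf4a* had 0.71, of *Hnf4g* 0.57, of *Lhx1* 0.79 and of *Pax8* 0.67. *Cda* and *Tulp3* dropped further with *Hnf4g*, to 0.38 and 0.48. The nearest genes were not ranked again without the 6, so others may then be nearer.

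Of 25 other tubule transcription factors, 2 fell and 0 rose in Pkd1KO against noncystic males by edgeR, where 2.25% of all genes fell, with 12 at an unadjusted p under 0.05 and 8 called by DESeq2. They were *Ehf*, an ETS factor of epithelia, by 0.47 on the log2 scale (SE 0.126, edgeR adjusted p = 0.033), and *Irx2*, an Iroquois homeobox factor, by 0.33 (SE 0.0881, edgeR adjusted p = 0.0323). Against Pkd1KO+ciliaKO males 3 fell: *Gata3* of the collecting duct (-0.42, edgeR adjusted p = 0.031), *Foxi1* of intercalated cells (-0.55, edgeR adjusted p = 0.041) and *Elf5* (-0.67, edgeR adjusted p = 0.0475). *Elf5* rose in Pkd1KO+ciliaKO against noncystic males by 0.88 (edgeR adjusted p = 0.00681), as did *Elf3* by 0.37 (edgeR adjusted p = 0.0323). DESeq2 called 5 and 4 of the 25 in these last comparisons. The list's median log2 fold changes in the 3 comparisons were -0.21, -0.19 and 0.01.

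In females 0 of the 25 passed in Pkd1KO against noncystic mice by edgeR, with 5 at an unadjusted p under 0.05 and 3 by DESeq2. In Pkd1KO against Pkd1KO+ciliaKO females 2 were higher, *Emx2* (0.23, edgeR adjusted p = 0.0113) and *Irx3* (0.31, edgeR adjusted p = 0.0422), and 2 lower, among them *Tfap2a*, the paralogue of *Tfap2b* (-0.31, edgeR adjusted p = 0.0224). *Irx3* was the single call in Pkd1KO+ciliaKO against noncystic females, with a log2 fold change of -0.52 (SE 0.105, edgeR adjusted p = 0.0257). DESeq2 called 7 and 3 of the 25 in these 2 comparisons. Between noncystic males and females 13 of the 25 passed, 3 higher and 10 lower in males, led by *Nr1h4* (1.17, edgeR adjusted p = 6.77e-08), *Emx2* (-0.35, edgeR adjusted p = 0.000162) and *Irx1* (0.58, edgeR adjusted p = 0.00138).

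Most kidney progenitor factors were near 0: 7 of the 10 never exceeded 4 CPM. *Six2*, the factor of the nephron progenitor, was at 0 counts in 27 of the 45 libraries and at 0.0411 CPM at most, and *Sall4* was at 0 in 38. *Meox1* and *Wt1* reached 17.5 and 14.3 CPM at the highest, and *Sall1* was at 69.7 to 214 CPM. Of the 8 tested, *Wt1*, which adult podocytes also express, rose in Pkd1KO against noncystic males by 0.87 (SE 0.25, edgeR adjusted p = 0.0483). *Meox1* rose in Pkd1KO against Pkd1KO+ciliaKO males by 1.66 (SE 0.391, edgeR adjusted p = 0.0252), and *Meox2* fell by 1.26 in the same contrast in females (SE 0.339, edgeR adjusted p = 0.0257).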

How the data were processed

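Groups follow the genotype and sex in the labels, with each mouse as 1 replicate. The authors deposited unnormalized counts per gene and mouse, made with fastp 0.20.0, STAR 2.7.9 on GRCm38.p6 and featureCounts 2.0.0. The strand and multimapping settings are not given in the sources used here. The deposited TPM tables, 1 for each sex, hold protein-coding genes only, kept by the authors where 20% or more of that sex's mice had 6 or more counts. No column was left unmatched to a sample.

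CPM values were scaled with TMM over all 45 libraries. Each pair of genotypes within a sex was fitted with edgeR 4.0.16 in R 4.3.3 (TMM, quasi-likelihood test, Benjamini-Hochberg adjustment, threshold 0.05) over the genes of that sex's TPM table, and sex differences in 1 fit of all mice over 15828 genes. Intervals of a log2 fold change are 95% intervals from its standard error. No 2 libraries of a group agreed within sampling noise: the lowest chi-square per degree of freedom was 53.6 over 149 pairs.

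Alternatives were DESeq2 1.42.0, its size factors in edgeR, no filter, all annotated genes, 3 genotypes in 1 fit, the replicate number as a block, limma 3.58.1 on log2(TPM + 1) and log2(TPM + 0.1), and leaving out the libraries named and, within a sex, each mouse in turn. The edgeR step was tested on simulated data. Nearest genes were ranked on log2 CPM with 0.5 added to the counts. The 8 genes, the lists and the rule for named genes (all 8; at most 3 of the other tubule factors per comparison, by smallest p; the 3 nearest genes of each) were chosen with earlier results of these data known. Symbols and gene classes came from GENCODE vM21 on GRCm38, which matched 55141 of 55401 genes.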

Additional observations from a re-analysis of the deposited data

Results flagged for a closer look

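In 7 of the 48 combinations of factor and group, 1 mouse lay far from the others of its group, by the ratio of its gap to the whole range of the group. Chance gives such a gap in about 1 in 20 groups. Male Pkd1KO replicate 4 had 710 CPM of *Hnf4a*, with the next mouse at 1080 and the highest at 1350. It is 1 of the 4 male libraries apart on the first principal component, as are the mice behind the *Pou3f3* extremes: noncystic replicate 3 had 281 CPM with the next at 226, and Pkd1KO+ciliaKO replicate 6 had 311 with the next at 248. *Hnf4g* was at 14.1 CPM in male Pkd1KO replicate 1, with the next at 10.7, and at 9.13 in noncystic female replicate 1, with the next at 6.63. Female Pkd1KO+ciliaKO replicate 1 was high for both *Lhx1*, at 53.6 CPM with the next at 36.1, and *Tfcp2l1*, at 1710 with the next at 1280. Without that mouse the *Tfcp2l1* difference of Pkd1KO from Pkd1KO+ciliaKO females was -0.17 in place of -0.27. No test of a sex difference in a genotype response passed the threshold for the 8 factors.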

How the results depend on the processing

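Of 1204 values of single factors under alternatives, 1067 kept their direction and side of the threshold, 51 lost the call, 8 gained it and 78 turned sign, none of the last in a difference that had passed the threshold. In both log2(TPM) fits the differences of Pkd1KO+ciliaKO from noncystic females turned to 0.02 for *Hnf4g*, 0.01 for *Pax8* and 0.04 for *Pou3f3*, and those from noncystic males to 0.08 for *Pou3f3* and 0.06 for *Tfap2b*. In the same fits Pkd1KO against noncystic became -0.02 for *Pax2* in males and 0.01 for *Pax8* in females, and *Pax8* in Pkd1KO against Pkd1KO+ciliaKO females fell just under 0. With the replicate block *Hnf4a* became -0.05 in Pkd1KO against noncystic females, *Hnf4g* 0.03 and *Pax8* 0.01 in Pkd1KO against noncystic males, and *Tfap2b* 0.01 and *Pou3f3* 0 in Pkd1KO+ciliaKO against noncystic males. Without the 4 libraries apart *Pax2* was 0.02 in Pkd1KO against Pkd1KO+ciliaKO males and *Pax8* 0.02 in Pkd1KO against noncystic males (0 with all annotated genes). Without the 2 female libraries *Pax8* was 0.01 and *Hnf4a* -0.01 in Pkd1KO against noncystic females, the latter also with 3 genotypes in 1 fit. The cause was not tested.

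With 1 mouse left out, Pkd1KO against noncystic males ran from -0.10 to 0.05 for *Hnf4g*, -0.05 to 0.05 for *Pax2* and -0.08 to 0.06 for *Pax8*, and females from -0.05 to 0.04 for *Hnf4a*, 0 to 0.08 for *Pax2*, -0.07 to 0.04 for *Pax8* and -0.01 to 0.09 for *Pou3f3*. Pkd1KO against Pkd1KO+ciliaKO males ran from -0.08 to 0.06 for *Hnf4a* and -0.12 to 0.02 for *Pax8*. Pkd1KO+ciliaKO against noncystic males ran from -0.02 to 0.10 for *Pax8*, -0.08 to 0.05 for *Pou3f3* and -0.10 to 0.05 for *Tfap2b*, and females from -0.07 to 0.13 for *Lhx1* and -0.01 to 0.14 for *Tfcp2l1*.

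Of 8 factors, the number called in Pkd1KO against noncystic males dropped from 3 to 1 with all annotated genes, 3 genotypes in 1 fit, both log2(TPM) fits and without the 4 libraries apart, and was 1 to 2 when 1 mouse was left out. In Pkd1KO+ciliaKO against noncystic males it went from 0 to 1 with DESeq2 and without the 4 libraries, and was 0 to 1 with 1 mouse left out. In Pkd1KO against Pkd1KO+ciliaKO females it was 0 with the replicate block in place of 2, and 1 to 2 with 1 mouse left out. In Pkd1KO+ciliaKO against noncystic females it was 0 in place of 1 with the replicate block and both log2(TPM) fits, and 0 to 1 with 1 mouse left out. Of the 70 counts under the other alternatives, 59 were within 1.5 times of the main count.

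The replicate numbers did not pair the mice: same-numbered mice had an r of deviations from -0.2506 to 0.254, at most 3 pairs of a comparison were over 0.1, and at most 3 mice were most like their own number. With the number as a block, *Tfap2b* was -0.55 (edgeR adjusted p = 0.0313) and -0.52 (0.0407) in Pkd1KO males against noncystic and Pkd1KO+ciliaKO, and -0.36 (0.0642) in Pkd1KO against Pkd1KO+ciliaKO females. *Hnf4a* was 0.28 (edgeR adjusted p = 0.158) in the same females and -0.35 (0.11) in Pkd1KO+ciliaKO against noncystic females, *Pou3f3* -0.27 (0.0839) in Pkd1KO against noncystic males, and *Lhx1* passed between noncystic males and females, at -0.25 (0.0285). Over all genes the block gave 170, 764, 294, 612 and 100 calls in place of 603, 1422, 533, 1869 and 405 in Pkd1KO against Pkd1KO+ciliaKO males, Pkd1KO+ciliaKO against noncystic males, Pkd1KO against noncystic females, Pkd1KO against Pkd1KO+ciliaKO females and Pkd1KO+ciliaKO against noncystic females.

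Over all genes DESeq2 called 1640 in place of 1008, 1234 in place of 603 and 2157 in place of 1422 in the 3 male comparisons, in the order of Pkd1KO against noncystic, Pkd1KO against Pkd1KO+ciliaKO and Pkd1KO+ciliaKO against noncystic, and 964 in place of 533 and 1269 in place of 405 in Pkd1KO and Pkd1KO+ciliaKO against noncystic females. The log2(TPM + 1) and log2(TPM + 0.1) fits called 625 and 669 in Pkd1KO against noncystic males and 1000 and 1007 in Pkd1KO+ciliaKO against noncystic females. With 3 genotypes in 1 fit 929 were called in Pkd1KO against Pkd1KO+ciliaKO males, and without the 4 libraries apart 2240 in Pkd1KO+ciliaKO against noncystic males.

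The log2(TPM + 0.1) scale moved the median of all genes to -0.112 and -0.102 in Pkd1KO against Pkd1KO+ciliaKO males and females and to 0.127 in Pkd1KO+ciliaKO against noncystic females. On log2(TPM + 1) the share of calls that were higher became 41.9% in Pkd1KO against noncystic males in place of 64.3%, 28.0% in place of 52.7% and 26.9% in place of 60.2% in Pkd1KO against Pkd1KO+ciliaKO males and females, and 87.5% in place of 26.4% in Pkd1KO+ciliaKO against noncystic females (36.9% by DESeq2). The least counted of the 8 factors, *Hnf4g*, had 465 counts or more in each mouse.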
